A study of Mus musculus with 11 samples.

Results

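The semaphorin, plexin, neuropilin, ephrin, Eph receptor, Slit, Robo, netrin, UNC5 and DCC genes of cultured mouse oligodendrocyte lineage cells are described here across 11 Affymetrix Mouse Genome 430 2.0 arrays. Members were chosen by gene symbol alone, as probe sets annotated to exactly 1 gene whose symbol begins with or equals one of these family names. The rule took 162 probe sets of 73 genes, out of 34958 probe sets of 18194 genes, and used no measured value. It also took Unc50, Unc5cl and Plxna4os1, 3 genes that share the letters but belong to none of the guidance families. Earlier results of these data were known when the members were chosen. Of the 73 genes, 40 had a probe set at a signal of 200 or more on at least 3 arrays and were tested, among 10070 genes in all. A gene bright in 1 group alone could pass that filter, as Unc5b did through control arrays and Efnb2 and Sema3a through progenitor arrays.

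The study asked what the loss of Myrf, a transcription factor of the oligodendrocyte lineage (written MRF in the labels), does to oligodendrocytes. Knockout oligodendrocytes (3 arrays) came from mice with the alleles MRF fl/fl and Olig2 wt/cre, and control oligodendrocytes (4 arrays) from littermates that were MRF wt/fl, Olig2 wt/cre. Both groups therefore carried Cre at 1 Olig2 allele, and the controls carried 1 floxed Myrf allele. Progenitors from brains of postnatal day 7 were purified on antibody to PDGFR-alpha after microglia had been removed with BSL1, were expanded in PDGF-AA at 10 ng/ml, and were then differentiated for 4 days without PDGF-AA in triiodothyronine at 40 ng/ml. The progenitor group (4 arrays) stayed in PDGF-AA for 6 days, and its labels call it control without naming alleles. B27 was at 2% in every culture. The labels do not say whether replicates came from separate animals, so the p-values cover only the variation among these cultures, part of which could be technical.

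Guidance molecules were named for steering growing axons, and each family pairs ligands with receptors on the surface of the responding cell. Semaphorins signal through plexins, with neuropilins as co-receptors for most secreted class 3 members. Ephrins signal through Eph receptors in both directions at cell contacts, Slits repel through Robo receptors, and netrins attract through DCC or repel through UNC5 receptors. Oligodendrocytes and their progenitors use several of these systems during migration, and mature oligodendrocytes present some of the ligands to axons.

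The promoters of 4 genes that were lower in the knockout are shown because the deepest falls with an entry were those of Unc5b and Slit2, while Sema4c and Ephb1 hold a match to a motif that was searched. Each is the 250 bases before a start listed in the RefSeq promoter table of GRCm38.p6. For Slit2 and Sema4c the window lies inside the span that RefSeq gives the gene, so the listed start is not the gene's outermost one. Capitals mark CTGGCAC, 1 of the 2 spellings searched for the Myrf motif (the other is CTGGTAC), in Sema4c, and ACAATG, 1 of the 2 spellings searched for the SOX core (the other is ACAAAG), in Ephb1. The Unc5b and Slit2 sequences hold neither motif on either strand and have no capitals.
Unc5b, chr10:60831582-60831831, minus strand: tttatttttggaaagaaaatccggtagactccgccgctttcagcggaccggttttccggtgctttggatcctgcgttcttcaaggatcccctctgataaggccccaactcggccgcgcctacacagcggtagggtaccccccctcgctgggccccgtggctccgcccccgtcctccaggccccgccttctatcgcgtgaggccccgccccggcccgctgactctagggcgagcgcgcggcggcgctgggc
Slit2, chr5:47982905-47983154, plus strand: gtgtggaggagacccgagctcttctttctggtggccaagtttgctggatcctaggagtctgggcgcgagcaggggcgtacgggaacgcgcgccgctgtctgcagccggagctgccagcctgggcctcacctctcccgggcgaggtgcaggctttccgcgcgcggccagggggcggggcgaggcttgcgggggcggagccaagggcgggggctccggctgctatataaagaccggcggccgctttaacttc
Ephb1, chr9:102354694-102354943, minus strand: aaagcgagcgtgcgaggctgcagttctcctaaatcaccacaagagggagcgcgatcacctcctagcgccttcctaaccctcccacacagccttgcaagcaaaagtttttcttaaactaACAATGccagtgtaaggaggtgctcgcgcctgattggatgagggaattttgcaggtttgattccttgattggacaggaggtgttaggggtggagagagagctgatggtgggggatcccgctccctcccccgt
Sema4c, chr1:36557558-36557807, minus strand: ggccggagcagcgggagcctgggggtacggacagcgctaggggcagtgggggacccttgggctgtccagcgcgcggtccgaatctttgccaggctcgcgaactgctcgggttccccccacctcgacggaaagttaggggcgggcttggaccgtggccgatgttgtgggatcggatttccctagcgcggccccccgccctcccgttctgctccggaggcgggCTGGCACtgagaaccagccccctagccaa

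The Sema4c match lies 29 bases before its listed start and the Ephb1 match 132 bases before its own. Another Sema4c promoter in the table holds neither motif. The table held 44 promoters of 35 of the 40 tested genes. It had no entry for Dcc, Efnb3, Ntn1, Plxna1 or Sema6a. A Myrf motif stood in 6 of the 44 promoters (13.6%, those of Nrp1, Ntn4, Plxna2, Plxnb2, Sema4a and Sema4c) against 5.93% of all 32851 promoters in windows of the same length, and in 1 of the 9 promoters of genes that were lower in the knockout. The SOX core stood in 10 of the 44 (22.7%) against 25.2% of all, and in 3 of those 9 (those of Ephb1 and Efna2 and 1 of Sema6d). The median GC content was 64.8% in the 44 promoters and 52.4% in all promoters, and the shares were not matched for it. No enrichment is read from them. These matches are letters in a window and were not tested against the expression values.

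Median signals of the arrays lay between 60.5 and 80.4. Myrf read 2849, 1904 and 2223 on the knockout arrays and 6215 to 7517 on the control arrays, but where its probes lie relative to the deleted part is not given in the sources used here. Among the progenitors, replicate 2 stood apart: Myrf read 6848 there and 752.1 to 1135 on the other three, and the summed signal of 9 cell cycle genes was 21731 there and 75508 to 95802 on the others. In progenitor replicates 1 and 4 the ratio of the 5′ to the 3′ Gapdh probe set was 0.332 and 0.120, against 1.15 to 1.41 on the other arrays.

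In the knockout against control comparison, 10 of the 40 tested guidance genes were lower in the knockout and 1 was higher. The threshold was an adjusted p under 0.05 in limma, in a fit without pairs of arrays (the replicate block is given below). Over all 10070 genes, 3.88% were lower and 3.64% were higher. Ligands (Efnb3, Slit2, Sema6a, Sema6d, Efna2 and Sema4c, 6 of 21 tested ligands) and receptors (Unc5b, Ephb1, Epha4 and Dcc, 4 of 18 tested receptors) fell, while Sema5b, a transmembrane semaphorin, rose. The median log2 difference of the 40 genes was -0.03, and that of all genes was 0.03. In 20 of the 40 genes the knockout and control arrays did not overlap, against 31.6% of all genes tested.

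**Figure D1:**
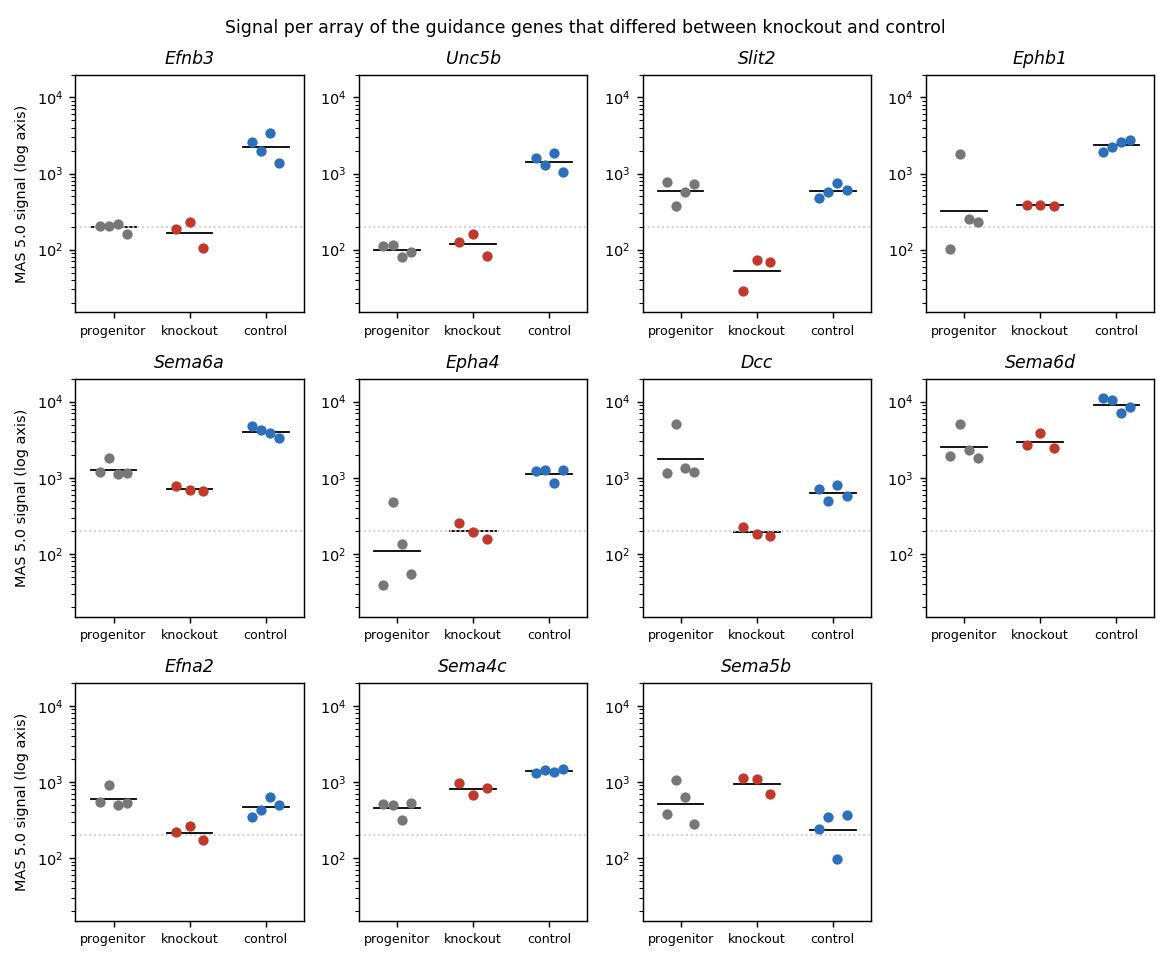
MAS 5.0 signal (log axis) on each array for the 11 guidance genes past the threshold between knockout and control, ordered by their log2 difference; points are arrays, bars are geometric means and the dotted line is the filter at 200. The knockout points (red) lie below every control point (blue) in 10 genes and above every control point in Sema5b.

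Efnb3 encodes ephrin-B3, a transmembrane ligand that acts as a barrier to axons at the ventral midline. Its signal was 188.8, 232.0 and 104.9 on the knockout arrays, 2633, 1972, 3362 and 1381 on the control arrays, and 204.3, 207.5, 217.2 and 161.3 on the progenitor arrays. All 4 control arrays were high, and the knockout and progenitor arrays overlapped at low signals. The knockout was 12.2-fold lower than the control on the log2(signal + 16) scale used for every fold here (log2 difference -3.61 ± 0.31 (SE), adjusted p = 5.5e-05). Control oligodendrocytes exceeded progenitors 10.5-fold (adjusted p = 3.7e-06), and knockout and progenitors differed by a log2 of -0.21 (95% interval -0.89 to 0.46).

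Unc5b, an UNC5 receptor that mediates repulsion by netrin, had the same order of groups. Its signal was 125.2, 160.3 and 82.5 in the knockout, 1580, 1312, 1883 and 1033 in the control, and 110.8, 115.7, 79.3 and 94.1 in the progenitors. Only the control arrays were high, with no overlap with either other group. Unc5b passed the filter at 200 through these arrays alone. The knockout was 10.6-fold lower than the control (log2 -3.41 ± 0.26, adjusted p = 3.5e-05), the control 12.5-fold above the progenitors (adjusted p = 6.9e-07), and the knockout-progenitor difference was 0.23 (95% interval -0.34 to 0.80). A second Unc5b probe set gave -3.08 between knockout and control.

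Slit2, a secreted repellent that binds Robo receptors, followed another order. It read 28.2, 72.2 and 68.0 in the knockout, 477.3, 569.9, 758.8 and 605.5 in the control, and 764.5, 373.8, 564.4 and 722.9 in the progenitors. Control and progenitor arrays overlapped, and all 3 knockout arrays lay below both. Since every knockout array was under 100, the fold is a bound: the knockout was at least 5.95-fold lower than the control (fitted log2 -3.15 ± 0.31, adjusted p = 1.2e-04) and at least 5.84-fold lower than the progenitors (adjusted p = 1.3e-05). Control and progenitors differed by 0.02 (95% interval -0.59 to 0.64). Its receptor gene Robo1, the other tested member of this pair of families, read 187.1, 157.7 and 93.9 in the knockout, 167.4, 338.1, 230.6 and 172.4 in the control, and 137.0, 154.6, 205.0 and 93.5 in the progenitors. The Robo1 groups overlapped, and it passed the threshold in none of the 3 comparisons (knockout-control log2 -0.58, adjusted p = 0.348).

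Sema6a, a transmembrane semaphorin that binds plexin-A2 and plexin-A4, read 789.0, 683.9 and 667.4 in the knockout, 4824, 4221, 3887 and 3311 in the control, and 1175, 1792, 1131 and 1138 in the progenitors. The 3 groups did not overlap, with the knockout lowest and the control highest. The knockout was 5.55-fold lower than the control (log2 -2.47 ± 0.20, adjusted p = 5.5e-05) and 1.79-fold lower than the progenitors (adjusted p = 0.0047). The second difference did not hold when the probe sets of a gene were averaged (adjusted p = 0.517). The other 2 Sema6a probe sets gave -1.82 and -2.53 between knockout and control and passed no threshold there.

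Sema6d, a transmembrane ligand of plexin-A1, read 2655, 3875 and 2444 in the knockout, 11007, 10431, 7193 and 8557 in the control, and 1924, 5110, 2335 and 1791 in the progenitors. Its control arrays lay above all others, and knockout and progenitor arrays overlapped. The knockout was 3.12-fold lower than the control (log2 -1.64 ± 0.33, adjusted p = 0.0087), with an adjusted p of 0.0509 when knockout replicate 3 was left out. The control was 3.60-fold above the progenitors (adjusted p = 4.2e-04). A second Sema6d probe set gave -1.93 between knockout and control and did not pass the threshold (adjusted p = 0.0999 over all probe sets).

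Ephb1 and Epha4 are Eph receptors, the first for B-type ephrins and the second for ephrins of both types. Ephb1 read 382.0, 390.0 and 373.3 in the knockout, 1904, 2244, 2570 and 2768 in the control, and 102.4, 1803, 250.9 and 232.1 in the progenitors. Progenitor replicate 2 was close to the control arrays, and the other progenitor arrays lay below the knockout. The knockout was 5.94-fold lower than the control (log2 -2.57 ± 0.66, adjusted p = 0.035), and leaving out any of the 7 oligodendrocyte arrays ended this call (adjusted p = 0.067 to 0.118). The spread in this fit is shared with the progenitor arrays, which ran from 102.4 to 1803. With only the 2 oligodendrocyte groups in the fit, the adjusted p for Ephb1 was 2.4e-05.

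Epha4 read 255.9, 196.6 and 154.9 in the knockout, 1217, 1264, 865.3 and 1247 in the control, and 39.3, 480.0, 133.1 and 53.9 in the progenitors. The control arrays lay above every other array, and progenitor replicate 2 was the brightest progenitor. The knockout was 5.36-fold lower than the control (log2 -2.42 ± 0.58, adjusted p = 0.025), a call that was lost without any 1 oligodendrocyte array other than control replicate 3 (adjusted p = 0.056 to 0.102). With only the 2 oligodendrocyte groups in the fit, and so without the progenitor spread, it was 1.2e-04. The other 3 Epha4 probe sets gave -1.84 to -2.56. Control exceeded progenitors 6.84-fold for Ephb1 (adjusted p = 0.0027) and 8.85-fold for Epha4 (adjusted p = 5.8e-04).

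Dcc, the netrin receptor that mediates attraction, read 223.8, 182.7 and 171.9 in the knockout, 719.9, 491.5, 813.4 and 567.5 in the control, and 1149, 5060, 1332 and 1186 in the progenitors. The 3 groups did not overlap, with the progenitors highest and the knockout lowest. The knockout was 3.14-fold lower than the control (log2 -1.65 ± 0.43, adjusted p = 0.039) and 8.47-fold lower than the progenitors (adjusted p = 1.6e-04), and the control was 2.70-fold lower than the progenitors (adjusted p = 0.010). Leaving out any 1 of the 7 oligodendrocyte arrays took the first of these past 0.05 (adjusted p = 0.053 to 0.140). With only the 2 oligodendrocyte groups in the fit, it was 8.6e-04. A second Dcc probe set gave -1.95 between knockout and control and did not pass the threshold (adjusted p = 0.087 over all probe sets).

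Efna2, a GPI-anchored ephrin, read 219.9, 267.6 and 170.9 in the knockout, 349.9, 424.1, 625.4 and 493.9 in the control, and 541.9, 900.3, 500.7 and 525.4 in the progenitors. The knockout arrays lay below those of both other groups, which overlapped. The knockout was 2.06-fold lower than the control (log2 -1.05 ± 0.26, adjusted p = 0.030) and 2.65-fold lower than the progenitors (adjusted p = 0.0010). The knockout-control call was lost without any 1 of the oligodendrocyte arrays other than control replicate 1 (adjusted p = 0.054 to 0.135).

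Sema4c, a transmembrane ligand of plexin-B2, read 964.0, 672.5 and 824.9 in the knockout, 1304, 1454, 1360 and 1470 in the control, and 510.4, 493.0, 315.6 and 533.8 in the progenitors. Its groups did not overlap, and the knockout lay between the progenitors and the control. The knockout was 1.70-fold lower than the control (log2 -0.77 ± 0.20, adjusted p = 0.041), which no longer held without any 1 of the 7 oligodendrocyte arrays (adjusted p = 0.064 to 0.202), and 1.76-fold above the progenitors (adjusted p = 0.0060). The control was 3.00-fold above the progenitors (adjusted p = 5.0e-05).

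Sema5b, a transmembrane semaphorin with thrombospondin repeats that inhibits neurites in the retina, was the gene that rose. It read 1143, 1080 and 691.4 in the knockout, 243.6, 351.3, 98.0 and 365.4 in the control, and 374.2, 1077, 639.7 and 284.3 in the progenitors. The knockout arrays lay above all control arrays, and the progenitors spanned both. The knockout was 3.80-fold above the control (log2 1.93 ± 0.48, adjusted p = 0.029), and a second probe set gave 1.79 (adjusted p = 0.0047 over all probe sets). The call was lost without any knockout array or without control replicate 1 or 3 (adjusted p = 0.057 to 0.125).

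**Figure D2:**
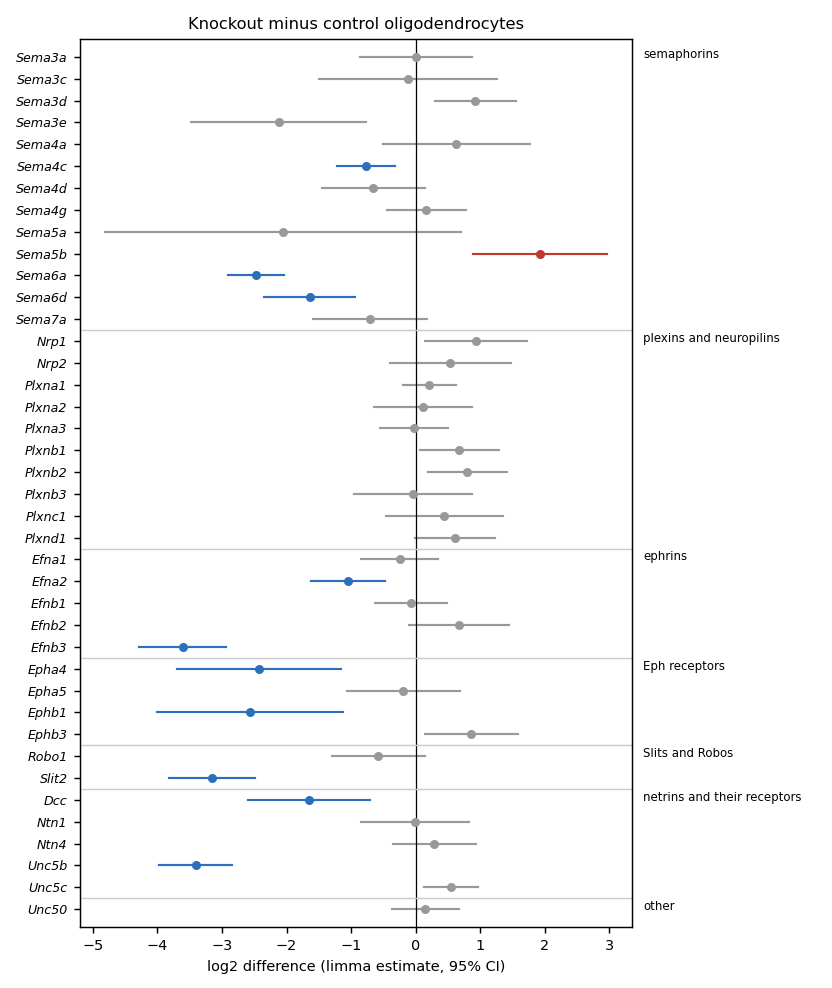
Log2 difference (knockout minus control oligodendrocytes, limma estimate with 95% interval) of the 40 tested genes, by family; blue is lower, red higher and grey not past the threshold. The estimates of Efnb3 (-3.61), Unc5b (-3.41) and Slit2 (-3.15) are the lowest, the interval of Sema5a is the widest (-4.81 to 0.71), and no plexin or neuropilin is coloured.

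The other 29 tested genes differed between knockout and control by log2 values from -2.12 to 0.94 without passing the threshold. Sema3e, the secreted ligand of plexin-D1, had the largest of these. It read 230.7, 180.3 and 308.1 in the knockout, 1445, 533.6, 1239 and 1390 in the control, and 124.4, 21.7, 359.1 and 189.2 in the progenitors. The knockout and control arrays did not overlap (log2 -2.12 ± 0.62, adjusted p = 0.060), and the other 2 probe sets gave -1.86 and -2.17 (adjusted p = 0.043 and 0.045 over all probe sets). Sema5a, which oligodendrocytes of the optic nerve are known to make, read 366.3, 743.9 and 532.8 in the knockout and 1807, 2436, 1687 and 3331 in the control. These groups did not overlap either, but the progenitor arrays read 31.9, 5495, 738.9 and 44.0 and the shared spread was wide (log2 -2.05 ± 1.27, adjusted p = 0.388). Another Sema5a probe set gave -2.26 (adjusted p = 0.022 over all probe sets).

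All 10 tested plexins and neuropilins, the receptors of semaphorins, missed the threshold between knockout and control in the unpaired fit. Their log2 differences ran from -0.04 to 0.94. Plxnb3, a plexin known from oligodendrocytes as a receptor of Sema5a, read 6676, 4348 and 7185 in the knockout, 6228, 6381, 5322 and 6494 in the control, and 2503, 9852, 2070 and 3156 in the progenitors. Knockout and control overlapped (log2 -0.04, 95% interval -0.95 to 0.88). Plxnb1, the receptor of Sema4d, read 1452, 1578 and 1588 in the knockout, 896.7, 1231, 625.2 and 1206 in the control, and 856.0, 658.3, 437.3 and 435.8 in the progenitors. Its knockout arrays lay above the control arrays, without passing the threshold (log2 0.68 ± 0.28, adjusted p = 0.184).

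With the replicate number as a block, 12 guidance genes were lower and 7 higher, where 9.24% and 13.0% of all genes were. The 8 genes added were Sema3e (adjusted p = 0.0028) and Sema5a (0.0014) among those lower, and Sema3d (0.0055), Nrp1 (0.0092), Ephb3 (0.023), Plxnd1 (0.023), Unc5c (0.034) and Plxnb1 (0.039) among those higher. Without progenitor replicate 2, 11 genes were lower (Sema3e added, adjusted p = 0.0030) and 4 higher (Sema3d, Nrp1 and Ephb3 beside Sema5b), where 6.51% and 6.60% of all genes were. Without progenitor replicates 1 and 4, 11 were lower (Sema5a added, adjusted p = 0.048) and 3 higher (Sema3d, 0.024, and Unc5c, 0.022, added), where 5.54% and 5.92% of all genes were. The plot of adjusted p-values over the alternatives shows which of the 11 calls depend on these choices.

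**Figure D3:**
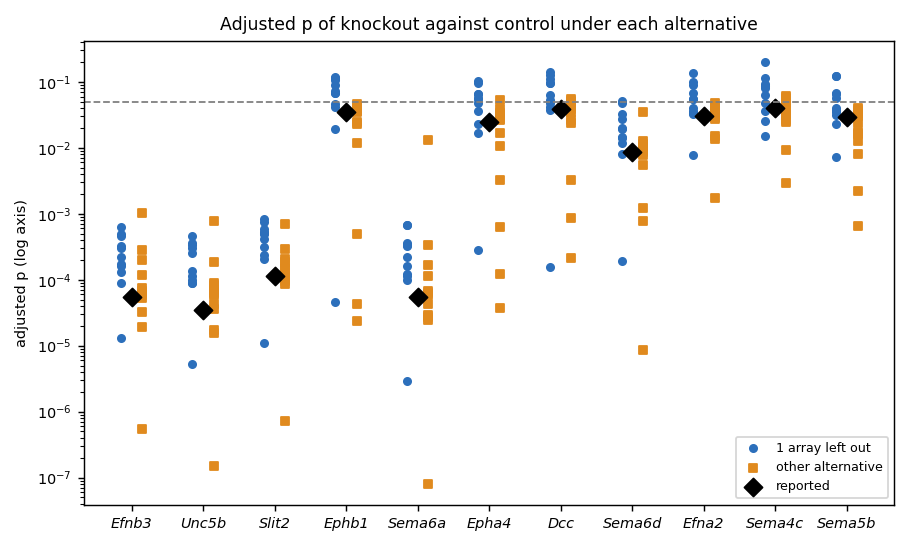
Adjusted p (log axis) of the 11 genes past the threshold between knockout and control under each of 23 alternatives; diamonds are the reported values, blue points leave out 1 array, orange squares are other alternatives, and the dashed line is 0.05. Efnb3, Unc5b, Slit2 and Sema6a stay under the line in all 23, Sema6d in 22, and the other 6 genes in 14 to 18.

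Of the 40 genes, 21 had more than 1 probe set past the filter. In the 6 of these that passed the threshold between knockout and control (Dcc, Epha4, Sema5b, Sema6a, Sema6d and Unc5b), every probe set of a gene had the same sign. Probe sets of a gene can read different transcript ends, and a sign was split only where differences were close to 0, as for Epha5 (-0.19, -0.07 and 0.25). Against progenitors, other probe sets of a gene gave another call in several cases. In control oligodendrocytes, the second Sema5b probe set was lower (log2 -2.27), the other Sema5a probe sets (3.67 and 4.38), the other Epha5 probe sets (1.01 and 0.96) and 1 of Unc50 (0.49) were higher, and the second of Plxnc1 (-0.52) was not past the threshold. In the knockout, other probe sets of Efna1 (2.01), Sema6d (1.80), Plxnb3 (1.52), Sema5a (1.40), Epha5 (1.21), Unc5b (0.98) and Unc50 (0.51) were higher than in progenitors, and those of Sema6a (-0.09 and -0.23) were not past the threshold. Among the progenitors, those of Efna1, Sema6d, Sema5a and Unc5b were lowest on replicates 1 and 4, the arrays with low Gapdh ratios. Efna1 read 2.7 and 3.0 there, against 61.4 and 68.0 on replicates 2 and 3. Those of Plxnb3, Epha5 and Unc50 did not have this order. The part of these arrays in the calls was not tested.

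**Figure D4:**
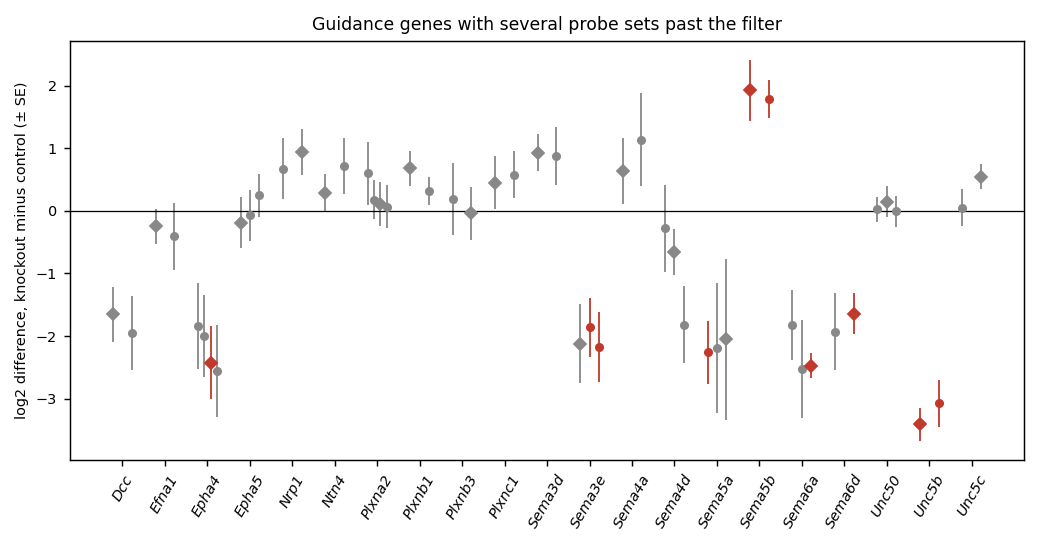
Log2 difference between knockout and control (± SE) of every probe set past the filter for the 21 guidance genes with more than 1; diamonds are the probe sets used in the tests, and red marks an adjusted p under 0.05 over all probe sets. The Unc5b pair lies at -3.41 and -3.08, and the Sema5b pair at 1.93 and 1.79.

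Control oligodendrocytes were set against progenitors. Besides stage, these groups differed in culture medium, in days in that medium (4 and 6) and in astrocyte markers (summed signals of 78827 to 109648 and 6501 to 11199). Cell cycle genes summed to 9466 to 20094 in the control and 21731 to 95802 in the progenitors. Progenitor replicates 1 and 4 also had Gapdh 5′ to 3′ ratios of 0.332 and 0.120, against 1.32 to 1.41 on the control arrays. The progenitor alleles are not named. The parts these play in the differences below were not tested. Of the 40 genes, 21 were higher and 8 lower in control oligodendrocytes, where 24.4% of all genes were higher and 29.6% lower. The median log2 difference was 0.79 in the guidance genes and -0.09 in all genes, and the arrays did not overlap in 18 of the 40, against 43.8% of all genes. Semaphorins made up 10 of the 21 higher genes (of 13 tested), and receptors 6 of the 8 lower ones. This comparison shares its control arrays with the comparison above, so their values are set side by side and not compared.

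Apart from the genes above, Sema3e was 7.68-fold higher in control oligodendrocytes than in progenitors (log2 2.94 ± 0.57, adjusted p = 0.0013). Sema3c, a secreted neuropilin ligand, read 441.5, 656.4, 282.2 and 586.9 in the control, 30.6, 168.2, 46.9 and 54.0 in the progenitors, and 1003, 639.3 and 118.3 in the knockout. Control and progenitor arrays did not overlap, and knockout replicate 3 lay within the progenitor range (control over progenitors 6.18-fold, adjusted p = 0.0030). Sema4d, the plexin-B1 ligand also named CD100, read 3333, 2800, 3024 and 4668 in the control, 565.3, 1819, 614.3 and 612.4 in the progenitors, and 2421, 1618 and 2513 in the knockout. The control arrays lay above all others, and progenitor replicate 2 fell within the knockout range (control over progenitors 4.22-fold, adjusted p = 4.2e-04).

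Sema4g and Sema7a, a transmembrane and a GPI-anchored semaphorin, were smaller rises. Sema4g read 1215, 759.3, 747.3 and 1190 in the control and 601.3, 549.1, 271.3 and 445.9 in the progenitors, with 1194, 1143 and 894.0 in the knockout (2.09-fold, adjusted p = 0.0051). Sema7a read 752.4, 563.1, 1989 and 527.2 in the control and 435.5, 238.9, 487.2 and 412.2 in the progenitors, with 489.2, 601.0 and 409.1 in the knockout (2.10-fold, adjusted p = 0.030). Neither overlapped between control and progenitors, and the Sema7a call was lost without control replicate 1 (adjusted p = 0.0506) or 3 (0.054), progenitor replicate 2 (0.060), or progenitor replicates 1 and 4 (0.071).

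Sema4a, Sema3d, Ntn1, Ntn4, Plxnb1, Efna1 and Nrp2 also rose, by log2 values of 0.72 to 1.82, though their control and progenitor arrays overlapped. The call of Sema3d ended without progenitor replicate 1 (adjusted p = 0.052), that of Efna1 without control replicate 2 (0.053), and those of Plxnb1 and Nrp2 without any of 5 arrays each (at most 0.098 and 0.102). Without progenitor replicates 1 and 4, the calls of Efna1 (0.167), Sema3d (0.149), Nrp2 (0.072), Ntn1 (0.060) and Sema4a (0.057) were lost. Ntn1, netrin-1 itself, read 724.6, 806.4, 454.1 and 649.6 in the control, 115.1, 271.2, 528.7 and 193.3 in the progenitors, and 639.6, 677.5 and 605.0 in the knockout (2.58-fold, adjusted p = 0.0068, and log2 0.74 without progenitor replicates 1 and 4). Ntn1 differed from its receptor genes Dcc and Unc5b in that control and knockout overlapped (log2 -0.01, 95% interval -0.84 to 0.82).

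Unc5c, another UNC5 receptor, read 845.7, 801.4, 762.0 and 786.2 in the control, 518.9, 431.8, 473.6 and 736.9 in the progenitors, and 1255, 1218 and 1059 in the knockout. The 3 groups did not overlap, with the knockout highest. Control exceeded progenitors 1.49-fold (adjusted p = 0.015) and knockout exceeded progenitors 2.18-fold (adjusted p = 5.3e-04), while knockout over control was 1.46-fold (adjusted p = 0.108). Plxnd1, the Sema3e receptor, read 187.3, 219.3, 169.7 and 384.2 in the control, 103.6, 87.4, 108.0 and 132.1 in the progenitors, and 433.1, 375.0 and 282.7 in the knockout. Its progenitor arrays lay below all others (control over progenitors 1.99-fold, adjusted p = 0.0079).

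Among the genes that were lower in control oligodendrocytes, Plxna2, a plexin that binds class 6 semaphorins, had the largest difference. It read 1914, 1341, 3357 and 1660 in the progenitors, 201.4, 214.9, 94.8 and 269.2 in the control, and 206.4, 232.9 and 165.1 in the knockout. All progenitor arrays were high, and control and knockout overlapped. The control was 9.83-fold lower than the progenitors (log2 -3.30 ± 0.32, adjusted p = 1.2e-05) and the knockout 9.10-fold lower (adjusted p = 3.1e-05), while knockout and control differed by 0.11 (95% interval -0.65 to 0.87). The other 3 Plxna2 probe sets gave -1.84 to -3.29 between control and progenitors.

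Efnb2, the transmembrane ligand ephrin-B2, read 247.4, 284.6, 344.2 and 408.2 in the progenitors, 34.1, 48.8, 75.1 and 88.0 in the control, and 70.6, 81.4 and 181.8 in the knockout. Neither oligodendrocyte group overlapped the progenitors. Every control array was under 100, so the control was at least 3.15-fold lower than the progenitors (adjusted p = 2.8e-04), and the knockout was 2.80-fold lower (adjusted p = 0.0048). Ephb3, a receptor of B-type ephrins, read 748.0, 243.4, 516.8 and 673.9 in the progenitors, 124.3, 177.1, 146.1 and 207.6 in the control, and 347.0, 297.4 and 277.4 in the knockout. The control arrays lay below those of both other groups (2.93-fold below the progenitors, adjusted p = 0.0015).

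Sema3a, the secreted semaphorin that collapses growth cones through neuropilin-1 and class A plexins, was 2.87-fold lower in the control than in the progenitors (adjusted p = 0.0048), with overlap, and 2.85-fold lower in the knockout without overlap (adjusted p = 0.0079). It read 269.5, 121.3, 290.0 and 402.0 in the progenitors, 56.2, 81.3, 56.6 and 129.6 in the control, and 57.7, 71.3 and 110.0 in the knockout. Knockout and control overlapped (log2 0.01). Plxnc1, Plxnb2 and Plxna3 fell by 1.01, 0.71 and 0.56 on the log2 scale between progenitors and control, with overlapping arrays. Each of these 3 calls was lost without any of 5 or more single arrays (adjusted p at most 0.119, 0.107 and 0.131), and without progenitor replicates 1 and 4 together (0.385, 0.198 and 0.191).

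Knockout oligodendrocytes were then set against the same progenitors. Of the 40 genes, 13 were higher and 7 lower in the knockout, where 23.8% of all genes were higher and 26.8% lower. The median log2 difference was 0.30, against -0.05 over all genes, and 19 of the 40 did not overlap, against 49.9% of all genes. The 7 lower genes were Plxna2, Slit2, Dcc, Sema3a, Efnb2, Efna2 and Sema6a. The 13 higher genes were Sema3c, Sema3d, Sema4a, Sema4c, Sema4d, Sema4g, Nrp1, Nrp2, Plxnb1, Plxnd1, Ntn1, Ntn4 and Unc5c, with log2 differences from 0.82 to 2.51.

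Sema3d, a secreted semaphorin, read 2596, 2022 and 2213 in the knockout, 1242, 1139, 1065 and 1307 in the control, and 394.9, 1198, 606.6 and 612.4 in the progenitors. The knockout arrays lay above all others (3.43-fold over progenitors, adjusted p = 4.2e-04; 1.90-fold over control, adjusted p = 0.077). Sema4a, a transmembrane semaphorin, read 1021, 668.4 and 516.1 in the knockout, 391.0, 750.2, 152.1 and 888.1 in the control, and 117.4, 213.9, 72.6 and 96.8 in the progenitors. Knockout and control overlapped widely, and the knockout exceeded progenitors 5.46-fold (adjusted p = 0.0023).

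Nrp1 and Nrp2, the neuropilins, rose against progenitors 3.08-fold and 2.94-fold (adjusted p = 0.0032 and 0.010) without overlap. Nrp1 read 417.3, 590.1 and 453.9 in the knockout, 222.6, 290.3, 185.2 and 294.7 in the control, and 236.5, 59.0, 165.8 and 183.1 in the progenitors. Nrp2 read 148.2, 310.1 and 207.0 in the knockout, 211.7, 114.3, 97.5 and 167.4 in the control, and 66.2, 19.8, 105.0 and 86.2 in the progenitors. The knockout arrays of Nrp1 also lay above the control arrays, while those of Nrp2 overlapped them.

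Plxnb1 was 2.64-fold (adjusted p = 0.0017) and Plxnd1 3.05-fold (adjusted p = 7.6e-04) higher in the knockout than in the progenitors, with no overlap. Ntn1 was 2.56-fold higher (adjusted p = 0.011, and 0.076 without progenitor replicates 1 and 4). Ntn4, a laminin-related netrin, read 678.3, 558.5 and 607.0 in the knockout, 556.9, 472.7, 370.9 and 633.3 in the control, and 278.2, 139.7, 395.9 and 221.1 in the progenitors, and was 2.43-fold higher in the knockout than in the progenitors (adjusted p = 0.0039). Sema4g was 2.34-fold higher (adjusted p = 0.0037), Sema3c 5.71-fold (adjusted p = 0.0063) and Sema4d 2.68-fold (adjusted p = 0.0071), the last 2 with overlapping arrays. Without progenitor replicates 1 and 4, the calls of Sema3c (adjusted p = 0.060) and Sema4d (0.074) were lost.

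**Figure D5:**
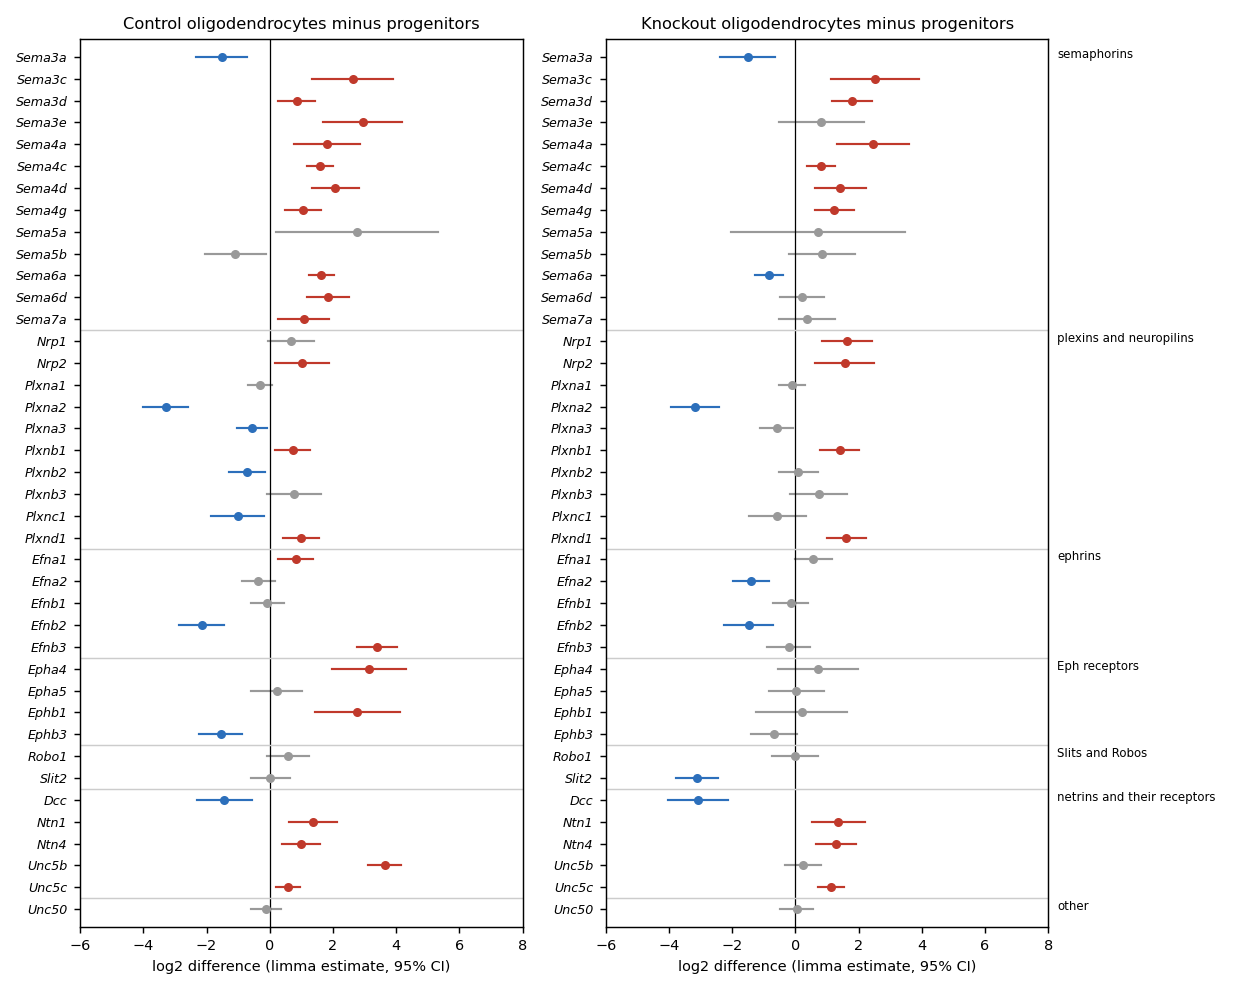
Log2 differences (limma estimate with 95% interval) of the 40 tested genes against progenitors, for control oligodendrocytes (left) and knockout oligodendrocytes (right), by family; red is higher, blue lower and grey not past the threshold. Efnb3 and Unc5b lie at 3.39 and 3.64 on the left and at -0.21 and 0.23 on the right, Slit2 at 0.02 and -3.12, and Plxna2 at -3.30 and -3.19.

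Efnb3, Unc5b, Sema6d, Ephb1 and Epha4 were thus past the threshold in control oligodendrocytes against progenitors and not past it in knockout oligodendrocytes against progenitors, and the knockout-control difference of each passed its own test. Epha4, Ephb1 and Sema6d were higher in the knockout than in the progenitors once progenitor replicate 2 was left out (adjusted p = 0.0039, 0.0080 and 0.045). Without that array 19 guidance genes were higher and 9 lower in the knockout than in the progenitors, where 28.4% of all genes were higher and 30.6% lower. In control oligodendrocytes 21 were higher and 7 lower without it, where 28.0% and 32.8% of all genes were. Without progenitor replicates 1 and 4, when Sema3a was among the genes no longer past the filter on dim probe sets, 16 were higher and 4 lower in the control (20.7% and 21.5% of all genes), and 11 and 6 in the knockout (20.8% and 20.0%).

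The 33 guidance genes that did not pass the filter were 7 semaphorins, 1 plexin, 3 ephrins, 9 Eph receptors, 5 Slits and Robos, 6 netrins and netrin receptors, and 2 genes outside these families. Their highest signal on any array was between 19.9 (Robo2) and 637.2 (Sema3f). Sema3f, Sema6c, Sema6b, Ntng1, Sema4b, Ephb6 and Unc5a reached 200 on 1 or 2 arrays, and the other 26 reached it on none. Efna1, Efnb1, Epha5, Plxna1 and Unc50 passed the filter and differed between knockout and control by -0.25, -0.07, -0.19, 0.21 and 0.15 (adjusted p = 0.579 to 0.912).

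Of 109 partners and effectors of these families on lists of the pathway, 89 were tested. Between knockout and control, 7 were higher and 3 lower, with a median log2 difference of 0.14, where 3.64% and 3.88% of all genes were. The lower ones were Rras2, a Ras family GTPase (mean signal 445.7 ± 70.4 (SD, n = 3) against 2763 ± 221 (n = 4), log2 -2.60, adjusted p = 3.5e-05), Abl1, a tyrosine kinase (log2 -1.60, adjusted p = 0.0062), and Crmp1, a collapsin response mediator (528.7 ± 88.3 against 1081 ± 240, adjusted p = 0.018). L1cam, an adhesion molecule and co-receptor for Sema3a, was 9.11-fold higher (1121 ± 82.0 against 113.4 ± 37.2, adjusted p = 2.6e-04). Efs, a Src substrate (log2 1.65, adjusted p = 4.1e-04), and Flrt1, a membrane protein that binds Unc5 receptors (log2 2.03, adjusted p = 0.015), were also higher.

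By list, the semaphorin and plexin partners had 1 higher and 2 lower of 21 tested, the Eph and ephrin effectors 1 and 1 of 23, the Slit and Robo partners 3 and 0 of 19, and the partners of netrin receptors 2 and 0 of 13. Against progenitors, 17 of the 89 were higher and 29 lower in control oligodendrocytes, where 24.4% and 29.6% of all genes were. Rras2 (log2 2.32), Inppl1 (2.64), a phosphatase that binds Eph receptors, and Pdzrn3 (2.71), a scaffold, had the smallest adjusted p among the higher, and Efs (-2.85), Crmp1 (-1.83) and Dpysl3 (-1.01), another collapsin response mediator, among the lower. In the knockout, 21 were higher and 22 lower than in progenitors, where 23.8% and 26.8% of all genes were, led by Inppl1 (3.55), Ablim1 (2.95), an actin-binding protein, and Nrcam (1.56), an adhesion molecule, and by Crmp1 (-2.83), Dpysl3 (-0.88) and Efs (-1.20).

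The cultures also differed in markers of other cells, and in bulk samples fewer cells of a type and less RNA per cell cannot be told apart. Astrocyte markers (13 of 14 tested) were above progenitors in 12 cases in the control and in 12 in the knockout, with summed signals of 78827 to 109648 in the control, 115399 to 129423 in the knockout and 6501 to 11199 in the progenitors. None was past the threshold between knockout and control in limma, and at an unadjusted p under 0.05 there were 2 above control. Smooth muscle and pericyte markers (3 of 7 tested) summed to 4705 to 7056 in the knockout, 769.7 to 2665 in the control and 230.2 to 483.9 in the progenitors. Acta2, Tagln and Myl9 were past the filter, and 2 of these 3 were higher in the knockout than in the control. Cnn1, Rgs5, Vtn and Kcnj8 were under the filter. Neuron markers summed to 2959 to 3180 in the knockout, 6659 to 8188 in the control and 3909 to 9975 in the progenitors, with 2 of 8 tested lower in the knockout than in the control and Snap25, Rbfox3, Gad1 and Slc17a6 under the filter. Endothelial and microglial markers were all under the filter. Mature oligodendrocyte markers summed to 45974 to 55413 in the knockout and 82877 to 105306 in the control, with 4 of 8 tested lower in the knockout. In the progenitors these markers summed to 57591 and 43370 on replicates 2 and 3, and to 15089 and 19517 on replicates 1 and 4. Oligodendrocyte progenitor markers summed to 62504 to 69488 in the knockout, 47586 to 52658 in the control and 78785 to 106400 in the progenitors, with 2 of 10 tested higher in the knockout than in the control. Cell cycle genes summed to 5910 to 7682 in the knockout, 9466 to 20094 in the control and 21731 to 95802 in the progenitors, with 1 of 9 tested lower in the knockout than in the control, and 7 of 9 at an unadjusted p under 0.05. The part of these differences in the guidance gene results was not tested.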

How the data were processed

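RNA of 11 cultures was measured on Affymetrix arrays. The deposited intensity values are linear MAS 5.0 signals that the authors made with GCOS 1.3 and scaled per chip to a target of 500, per the labels and the submitters' processing notes. No counts exist for arrays, so their number limits precision.

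Groups came from the sample titles. The symbol rule used no measured value, but members and lists were chosen with earlier results of these data known. Probe sets were named by the platform annotation (34958 with 1 gene, 932 with several, 9211 unnamed), and all 73 members matched RefSeq. Among probe sets at 200 or more on at least 3 arrays, the one brightest on average (log2) stood for its gene. limma 3.58.1 in R 4.3.3 was fitted to log2(signal + 16) of all 11 arrays and all 10070 genes, with 1 mean per group, an intensity trend and Benjamini-Hochberg adjustment at a threshold of 0.05. Where every array of the lower group was under 100, a fold is given as a bound against 100. The script was tested on simulated data.

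Named are all members past the threshold, the 2 brightest of each family in oligodendrocytes, and up to 3 other pathway genes per direction and comparison. The separate counts of 1 pathway list are not reported here. Same-numbered knockout and control arrays deviated together (r = 0.242, 0.241 and 0.214). Differently numbered arrays were not compared, so these values cannot show whether the numbers mark pairs. The reported fits did not use pairs, and the replicate block was run as an alternative. Same-numbered control and progenitor arrays deviated together less (r = -0.069 to 0.193). Alternatives changed the pseudocount, filter, normalization, probe set choice, variance model, block and arrays.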

Additional observations from a re-analysis of the deposited data

Results flagged for a closer look

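Among 80 groups of 4 arrays examined (the 40 tested genes in control oligodendrocytes and in progenitors), 8 had 1 array whose distance from its nearest neighbour took up most of the group's range on the log2 scale, and chance gives such a flag in about 1 of 20 groups. Progenitor replicate 2 was the high array in 4 of them. It was the highest for Dcc (5060, gap 0.901 of the range), Efna2 (900.3, gap 0.866), Sema4d (1819, gap 0.930) and Sema6a (1792, gap 0.917). Progenitor replicate 3 was the lowest for Sema4c (315.6, gap 0.848). Control replicate 3 was the lowest for Efnb1 (159.3, gap 0.896) and Epha4 (865.3, gap 0.900), and control replicate 2 was the lowest for Sema3e (533.6, gap 0.844).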

How the results depend on the processing

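Over 23 alternatives, the count of guidance genes lower in the knockout than in the control ran from 4 to 12 (10 as reported), with 4 to 11 when 1 array was left out. Over the same alternatives, calls among all genes (both directions together) ran from 348 to 2238. They ran from 348 to 1315 when 1 array was left out. The guidance gene counts were not tested against these totals. The count of those higher (1 as reported) was 2 without a filter on dim probe sets, 5 with only the 2 compared groups in the fit (8.29% of all genes), 7 with the replicate block (13.0%), 7 with array weights, 3 without progenitor replicates 1 and 4 (5.92%), and 0 to 4 when 1 array was left out. With array weights, 2160 of all genes were called in either direction. Genes lower in control oligodendrocytes than in progenitors (8 as reported) numbered 5 with the filter at a signal of 400, 5 with only the 2 compared groups (26.5% of all genes), 4 without progenitor replicates 1 and 4 (21.5%), and 4 to 7 when 1 array was left out. Genes higher in the knockout than in progenitors (13 as reported) numbered 20 with every probe set on its own. Where no share over all genes stands beside a count here, none is given. The replicate block left 18 higher and 6 lower in control against progenitors (21.2% and 25.1% of all genes). It left 10 and 6 in knockout against progenitors (15.3% and 15.4%), and all of these were among the genes reported. The calls it ended were those of Nrp2 (0.067), Plxna3 (0.070), Plxnb1 (0.053), Plxnb2 (0.064) and Unc5c (0.055) in the first and of Nrp2 (0.063), Ntn1 (0.066), Sema3a (0.051) and Sema4d (0.080) in the second (adjusted p). Sema5a between knockout and progenitors turned from 0.71 to -1.91 (adjusted p = 0.0485) without progenitor replicates 1 and 4, when the fit had fewer samples and progenitor replicate 2 read 5495. No other result named here changed direction past the threshold. Quantile normalization moved the median log2 difference of all genes by less than 0.1 in each comparison. The number of arrays limits precision, and falls to signals under 100 are given as bounds.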
